A study of Mus musculus with 4 samples.

Results

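The 200 most spermatid-like cells of testes treated with busulfan plus alginate oligosaccharides (AOS) are described here. They were the 200 cells of the BA10 library with the highest mean deposited value over Acrv1, Spaca1, Spaca3, Spaca7 and Prm1, and they made up 5.29% of the 3778 BA10 cells and were 200 of the 27060 cells in all. They were compared with the other 3578 BA10 cells, with the 200 cells of the control library A0 that ranked highest on the same 5 genes (the top A0 cells), and with 200 A0 cells matched to them on the 4 acrosome genes (the matched A0 cells).

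The testes came from mice of the outbred ICR stock, and single cells were captured with 10x Genomics 3' chemistry, in which a molecular barcode (UMI) lets each captured transcript be counted once. A0 was the control without AOS or busulfan, A10 received AOS alone at 10 mg/kg, B0 received busulfan alone, and BA10 received both busulfan and AOS at 10 mg/kg. Busulfan is an alkylating drug that kills dividing germ cells, and AOS are short chains made from alginate, a polysaccharide of brown algae. Per the methods of the study, male mice were injected with busulfan as juveniles, then given AOS or water by mouth, and the testes were taken in young adulthood; the text of the study gives differing lengths of AOS dosing. Each group was 1 library made from several pooled mice. No test between groups was therefore possible. Intervals below are exact 95% intervals for levels and shares. Those of ratios set the lower 95% bound of one set against the upper bound of the other, and so are wider than 95% intervals. All cover counting error only.

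Spermatids are the haploid cells that follow meiosis. A round spermatid first builds the acrosome, the enzyme-filled cap with which the sperm later meets the egg, and only afterwards packs its DNA, replacing histones with transition proteins and these with protamines. In spermatocytes, the cells in meiosis, genes of the X chromosome are silenced, and part of them are transcribed again in spermatids.

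Of the 5 ranking genes, Acrv1 (acrosomal vesicle protein 1), Spaca1, Spaca3 and Spaca7 encode proteins of the acrosome, and Prm1 encodes protamine 1. The 250 bases upstream of the start site are shown for 4 of them, since the members were chosen by the activity of these genes. Capitals mark the letters TGACG or their reverse complement CGTCA, the core of the cAMP response element, which the spermatid activator CREM and its relatives bind. The sequences are those of RefSeq on GRCm38.p6, written 5′ to 3′ on the strand of the gene, for Acrv1 at chr9:36692970-36693219 (+), Spaca1 at chr4:34050068-34050317 (-), Spaca3 at chr11:80858113-80858362 (+) and Prm1 at chr16:10796824-10797073 (-).
Acrv1: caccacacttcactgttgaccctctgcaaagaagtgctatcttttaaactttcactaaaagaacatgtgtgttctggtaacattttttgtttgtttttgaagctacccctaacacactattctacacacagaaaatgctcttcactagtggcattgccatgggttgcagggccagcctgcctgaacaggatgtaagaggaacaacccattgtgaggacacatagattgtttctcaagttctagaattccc
Spaca1: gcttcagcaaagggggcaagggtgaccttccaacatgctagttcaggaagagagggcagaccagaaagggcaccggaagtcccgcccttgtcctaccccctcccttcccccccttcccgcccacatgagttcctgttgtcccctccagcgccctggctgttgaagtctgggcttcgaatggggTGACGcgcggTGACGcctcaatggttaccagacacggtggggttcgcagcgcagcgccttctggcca
Spaca3: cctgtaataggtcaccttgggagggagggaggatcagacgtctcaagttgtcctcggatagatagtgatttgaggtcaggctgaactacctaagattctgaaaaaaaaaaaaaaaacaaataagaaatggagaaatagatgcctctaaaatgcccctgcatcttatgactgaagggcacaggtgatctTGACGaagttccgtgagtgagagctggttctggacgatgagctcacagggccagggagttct
Prm1: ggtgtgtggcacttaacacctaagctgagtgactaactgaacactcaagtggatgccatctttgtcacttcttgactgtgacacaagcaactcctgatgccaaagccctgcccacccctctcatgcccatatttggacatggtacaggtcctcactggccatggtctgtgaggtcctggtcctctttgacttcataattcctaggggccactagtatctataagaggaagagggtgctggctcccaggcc
Where RefSeq gives several start sites, as for Spaca1, the outermost was used. The window of Spaca1 held 2 such stretches, beginning 67 and 57 bases before that start site, and that of Spaca3 held 1, beginning 62 bases before it. The windows of Acrv1, Prm1 and Spaca7 (chr8:12572786-12573035, not shown) held none. Of all 32851 windows of 250 bases, 17.8% held TGACG on either strand and 1.55% held the full palindrome TGACGTCA. A match is a run of letters and not a measured binding site. Only these exact letters were searched for, so a window without them may still hold a variant of the element.

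The ranking left no gap at its limit. The mean over the 5 genes, on the natural log scale of the deposited values, ran from 1.508 to 2.48 in the 200 cells, with a median of 1.70. The last cell inside stood at 1.50844 and the next cell outside at 1.50789. The last 3 cells inside carried 235.8 to 404.2 CPM of Acrv1 (counts per 1000000 UMIs) and the next 3 outside 284.5 to 421.2 CPM, and Prm1 was at 0 in 2 of the 3 cells on either side. The median of the other BA10 cells was 0.147. In A0, 5680 cells (63.5%) reached the lowest value of the 200 cells, as did 6334 A10 cells (65.4%) and 40 B0 cells (0.859%, interval 0.614% to 1.17%). The 5-gene mean includes Prm1, which every A0 and A10 cell carried, with lowest values of 332 and 600.4 CPM. A0 cells ranked highest on spermatocyte genes had a median of 0.684 over the 5 genes and 0.166 over the 4 acrosome genes. At or above the median of the 200 cells over the 4 acrosome genes, 1.90, lay 1689 A0 cells (18.9%), 1620 A10 cells (16.7%), 100 BA10 cells (2.65%) and 25 B0 cells (0.537%). The top A0 cells began at 2.61 over the 5 genes, above the highest of the 200 BA10 cells, but over the 4 acrosome genes the sets overlapped, from 1.84 to 2.54 in the top A0 cells and from 0.143 to 2.38 in the 200 cells.

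**Figure D1:**
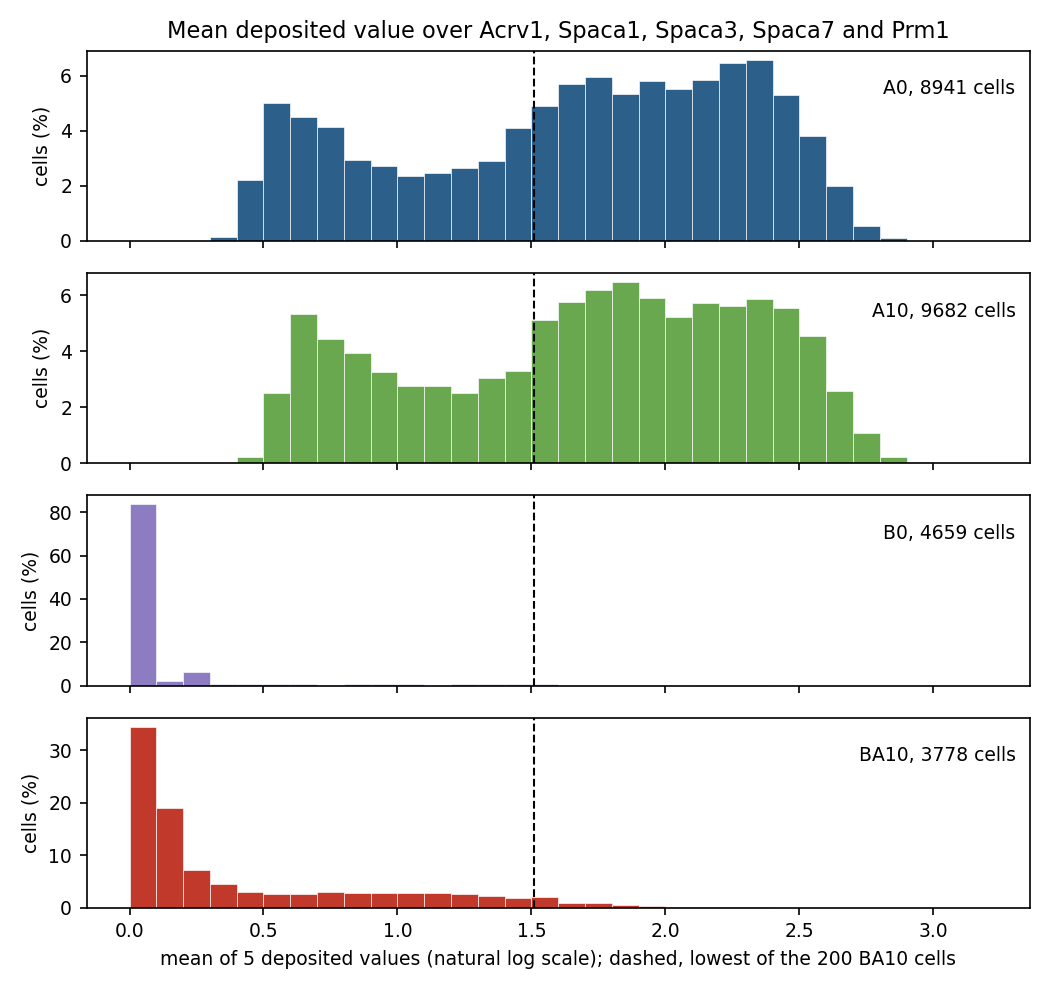
Share of cells (%, vertical axes, each with its own scale) by the mean deposited value over the 5 ranking genes (horizontal axis, natural log scale), in bins 0.1 wide, for A0, A10, B0 and BA10; the dashed line marks the lowest of the 200 BA10 cells at 1.508. Most A0 and A10 cells lie to the right of the line, and the BA10 bins show no gap at it.

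Most of the 200 cells were rich either in acrosome genes or in Prm1, but some were rich in both. Prm1 was at 0 in 25 cells, had a median of 157 CPM and reached 111197 CPM. Ranges of Prm1 were set after these values were seen: 168 cells (84%) lay under 1000 CPM, with a highest value of 898 CPM, 15 cells (7.5%) lay between 1000 and 5000 CPM, and 17 cells (8.5%) lay at 5000 CPM or more, with a lowest value of 7321 CPM. The low and middle ranges ran into each other, with 23 cells between 500 and 2000 CPM, while 2 cells lay between 4000 and 8000 CPM. The 168 cells low in Prm1 all had a mean of at least 1.66 over the 4 acrosome genes, and 14 of the 17 cells high in Prm1 lay below that. Without Prm1 in the ranking, 166 of the 200 cells stayed in, namely 149 of the 168 low, 14 of the 15 middle and 3 of the 17 high cells. Part of this split is fixed by the rule, since a cell with few acrosome transcripts could reach the limit only through Prm1. By these values, most of the 200 cells were rich in acrosome transcripts and poor in Prm1.

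**Figure D2:**
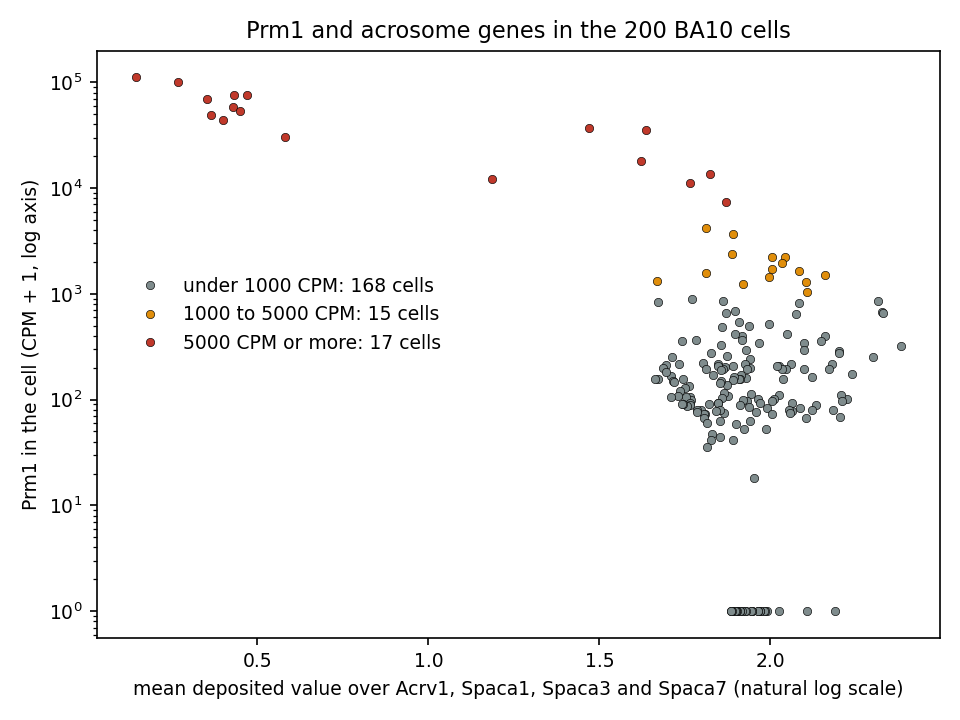
Prm1 in each of the 200 BA10 cells (CPM + 1, vertical log axis) against the mean deposited value over Acrv1, Spaca1, Spaca3 and Spaca7 (horizontal axis, natural log scale); each point is a cell and colours give the Prm1 range. The 168 grey cells sit at 1.66 or more on the horizontal axis, and 14 of the 17 red cells sit to their left.

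Because of this split, sums over the 200 cells described the DNA-packing genes poorly. The 17 cells high in Prm1 held 9.43% of all UMIs of the 200 cells but 93.9% of their Prm1 UMIs, 94.0% of Prm2 (protamine 2), 88.9% of Tnp2 and 65.5% of Tnp1 (the transition proteins). They held smaller shares of H1fnt, the linker histone of spermatids (27.6%), of Prm3 (16.9%) and of Spaca1 (2.88%). Of the other 3578 BA10 cells, 11 were at 5000 CPM of Prm1 or more, as were 2 of 4659 B0 cells and 3381 of 8941 A0 cells. The lowest UMIs per cell also differed, at 9013 in BA10, 2985 in B0 and 7687 in A0, and every A0 cell carried some Prm1.

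The 3 ranges also differed in genes that the ranking did not use, although the cells of each range had been picked by their acrosome and Prm1 values. Some acrosome genes were lowest in the high range: Spam1, a hyaluronidase of the sperm head named here after its values were seen, was at 204 CPM in the low, 98.8 CPM in the middle and 8.33 CPM in the high range, and Acrbp, which holds the acrosomal protease precursor, at 678, 515 and 219 CPM. Tnp1 was at 820, 2096 and 16560 CPM and Tnp2 at 248, 1643 and 26507 CPM in the same order. H1fnt was at 393, 819 and 1549 CPM, and Tssk6, a kinase needed for DNA packing, at 42.9, 309 and 974 CPM. Prm3 shares a gene cluster with the protamines and is listed with them below, but no role in DNA packing is assumed for it. It was already at 1639 CPM in the low range, against 2813 and 3354 CPM. Genes of the tail list went both ways. Odf1, a protein of the outer dense fibres, was at 169, 214 and 244 CPM. Smcp (2297, 3504 and 5697 CPM), Odf2 (1736, 1919 and 2549 CPM) and Oaz3 (1177, 1754 and 3254 CPM) also rose. Ropn1l (3961, 3554 and 2132 CPM) and Tekt4 (1008, 832 and 308 CPM) fell. The medians of UMIs per cell were 13985, 13466 and 22071 in the 3 ranges; the part of depth in these differences was not tested.

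**Figure D3:**
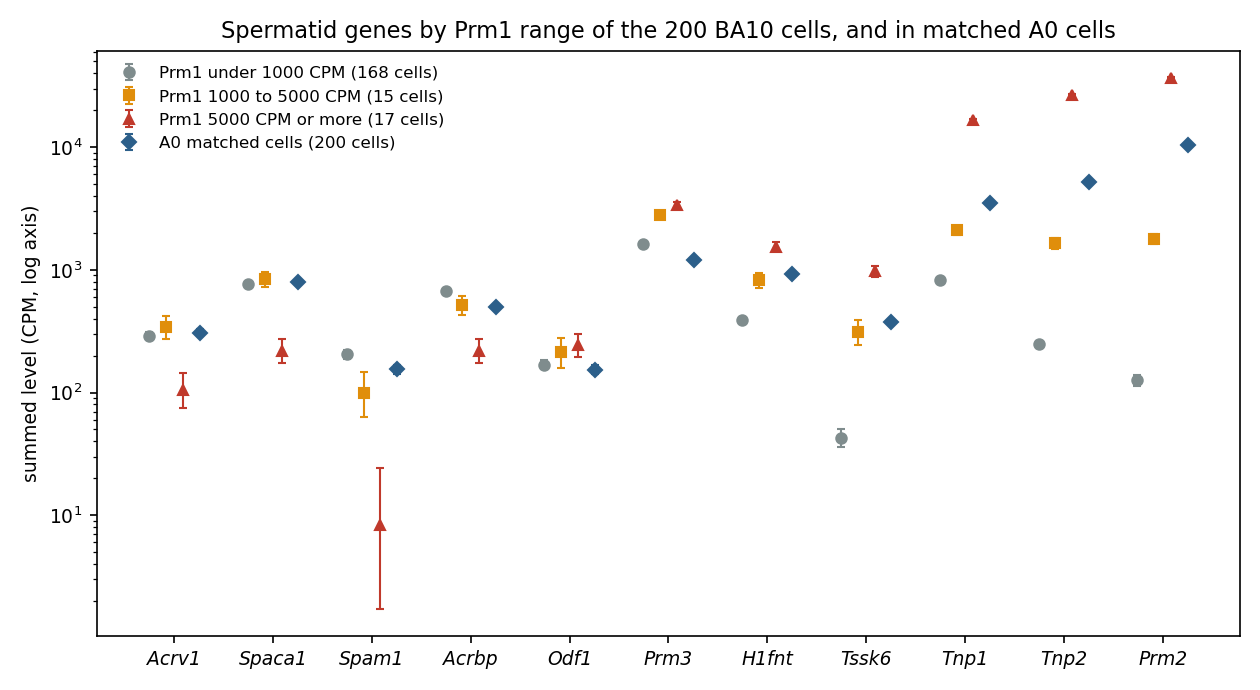
Level (CPM, vertical log axis, with exact 95% Poisson intervals) of 11 spermatid genes in UMIs summed over the 168 low, 15 middle and 17 high cells of the 200 and over the matched A0 cells. Acrv1, Spaca1, Spam1 and Acrbp are lowest in the high range, and H1fnt, Tssk6, Tnp1, Tnp2 and Prm2 increase from low to high.

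Values per cell are given for late spermatid genes in the 168 cells low in Prm1. Prm3 had a median of 1600 CPM and a UMI in 167 of them, Tnp1 a median of 790 CPM and a UMI in 162, and Hmgb4, a chromatin protein of the male germ line, a median of 1015 CPM and a UMI in 162. H1fnt was more variable, with a median of 309 CPM, a range of 0 to 1277 CPM and a UMI in 131 cells. Tnp2 had a median of 159 CPM, Prm2 of 97.1 CPM and Tssk6 of 0 CPM. After thinning every cell to 7500 UMIs, Prm3 was seen in 98.8% of them (interval 95.8% to 99.9%), Tnp1 in 93.5% (88.6% to 96.7%), Hmgb4 in 91.1% (85.7% to 94.9%), Prm1 in 65.5% (57.8% to 72.6%) and Tssk6 in 19.6% (13.9% to 26.5%).

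Cells ranked on genes of other cell types also carried spermatid transcripts, and their levels differed between the libraries. The 200 BA10 cells ranked highest on 5 Leydig cell genes (Star, Cyp11a1, Cyp17a1, Hsd3b1 and Insl3) were not free of germ cell RNA. They held 5644 CPM of Ldhc, of the pachytene list, against 8921 CPM in the other BA10 cells. Sycp3, a meiotic gene, was at 196 CPM against 314 CPM. The set is therefore no spermatid-free control. Of these Leydig-ranked cells, 6 were among the 200 spermatid-ranked cells. In the other 194, Prm3 was seen in 23.7% of cells after thinning (17.9% to 30.3%), Prm1 in 22.7% (16.99% to 29.23%), Hmgb4 in 10.8% (6.83% to 16.1%), Tnp1 in 20.6% (15.2% to 27.0%), H1fnt in 2.58% (0.842% to 5.91%) and Tssk6 in 1.03% (0.125% to 3.67%), at a median of 11495 UMIs per cell against 13985 in the 168 cells low in Prm1, whose shares were all higher. Summed levels in these 194 cells were 32.9 CPM of Prm1 and 37.8 CPM of Prm2, against 182 and 126 CPM in the 168 cells. With the 6 shared cells they were 219.7 and 189.9 CPM, above the 168 cells, so that these levels rested on a few cells. In A0 every cell carried Prm1, the lowest at 332 CPM, and the 200 A0 cells ranked highest on 6 spermatocyte genes had a median of 1388 CPM, against 0 CPM in the BA10 cells ranked in that way. A0 and BA10 cells thus differed in Prm1 also among cells ranked on spermatocyte genes. Ratios with the summed level of the spermatocyte-ranked cells taken off are given with the comparisons with A0.

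A measure that the ranking did not use was the share of X-linked genes among a cell's UMIs of genes matched by RefSeq name. Its median was 1.41% in the 200 cells, 0.225% in the other BA10 cells and 0.159% in the BA10 cells ranked highest on spermatocyte genes. It was also high in the 200 BA10 cells ranked highest on Leydig genes, at 1.21% with quartiles of 0.493% and 1.97%, although that set also held germ cell RNA. The share thus did not set the spermatid-ranked cells apart from those. The share reached 1% in 176 of the 200 cells (88%, interval 82.7% to 92.2%) and in 305 of the other 3578 cells (8.52%, 7.63% to 9.49%). It differed among the ranges of Prm1, with medians of 1.35% in the low, 1.92% in the middle and 2.03% in the high range. The top A0 cells stood at 1.62%, the matched A0 cells at 1.25% and the other A0 cells at 0.948%. Of the 200 cells, 0 were among those ranked highest on spermatocyte genes and 6 were among those ranked highest on Leydig genes. Scrublet, which looks for droplets with more than 1 cell, called 0 of the 200 cells and 48 of the other BA10 cells. It called 13 of the 200 top A0 cells and 13 of the 200 matched A0 cells. Over whole libraries it called 8.06% of A0 cells and 1.27% of BA10 cells. It did not call the cells at ranks 3 and 43, which carried 2175 and 2196 CPM of Insl3 beside 11191 and 12295 CPM of Prm1. Whether these were mixed droplets was not tested.

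**Figure D4:**
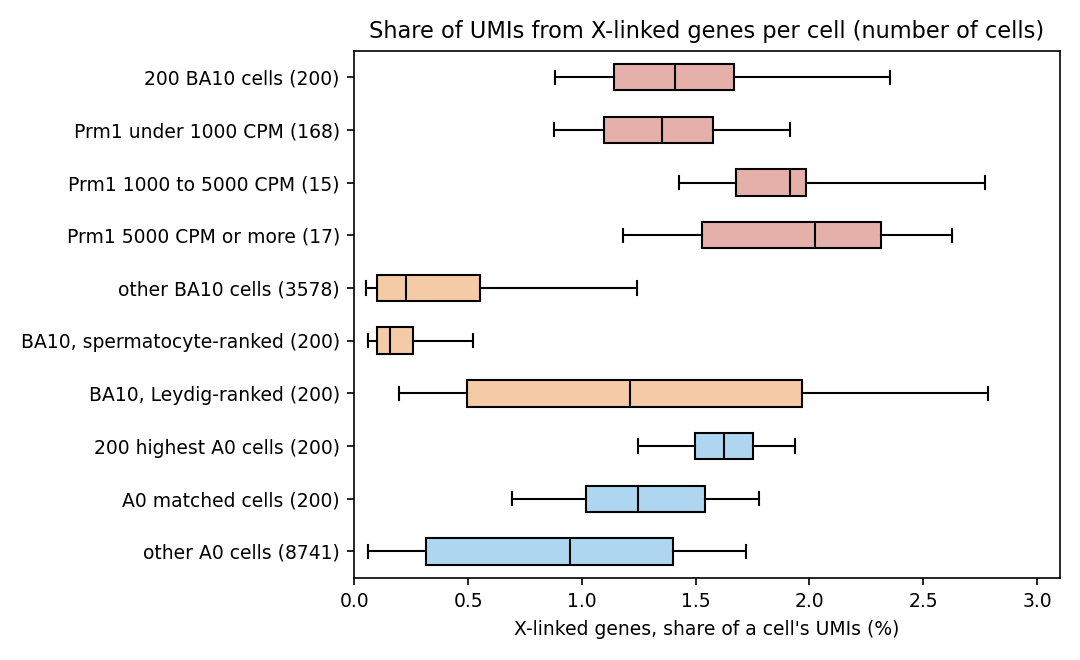
Share of X-linked genes among each cell's UMIs of genes matched by RefSeq name (%, horizontal axis) in 10 sets of cells, with the number of cells in parentheses. Boxes span the quartiles, lines mark medians and whiskers run from the 5th to the 95th percentile. The 200 BA10 cells have a median of 1.41% against 0.225% in the other BA10 cells and 1.21% in the Leydig-ranked BA10 cells.

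Against the other BA10 cells, all genes of the spermatid nuclear protein list and most of the sperm tail list were higher in the 200 cells. Most genes of the meiotic divisions were lower. Among 7703 genes at 10 CPM or more in either set, 1871 (24.3%) were at least 2-fold higher and 2411 (31.3%) at least 2-fold lower, on log2 of CPM + 1. Since the cells were picked from this library by spermatid genes, these counts describe the pick. The median over all genes was -0.48; ratios taken relative to it gave 2221 higher and 1412 lower genes, and the share of higher genes among all called moved from 43.7% to 61.1%. All 6 spermatid nuclear protein genes, all 5 testis serine kinases and 12 of 15 sperm tail genes were at least 2-fold higher, with list medians of 5.06, 3.40 and 3.62 on the log2 scale. H1fnt, Tssk6 and Fscb, 1 gene of each list, reached 10 CPM only in the 200 cells and so could hardly be lower, as could 1105 of all genes, of which 989 were higher. The nuclear protein median moved most with the choice of cells: it was 3.39 when cells were ranked without Prm1, 3.85 with 100 cells, 3.94 without the 17 cells high in Prm1 and 3.99 after thinning, but 6.05 with 400 cells and 6.48 when ranked on summed CPM. Of the 751 X-linked genes in the table, 185 were at 10 CPM or more, and 152 of these were higher and 0 lower, with a median of 2.59. However, 121 of the 185 reached 10 CPM only in the 200 cells and so could hardly be lower. Of the 64 that reached it in the other BA10 cells, 36 were higher and 0 lower, with a median of 1.61, beside 790 higher and 2318 lower of 6236 such genes on other chromosomes, with a median of -0.70.

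The acrosome list was divided. Of its 18 genes outside the ranking, 9 were higher, all by 1.48 or more, and 9 lay within 2-fold; Spaca6, among the 9 higher, reached 10 CPM only in the 200 cells. Spam1 was at 179 CPM against 11.8 CPM (log2 ratio 3.81, interval 3.62 to 4.002). Dkkl1, an acrosomal protein also made in spermatocytes, was at 2360 CPM against 2762 CPM, Spink2, an acrosomal protease inhibitor, at 1427 CPM against 2079 CPM, and Zpbp, which binds the egg coat, at 720 CPM against 619 CPM. The same kind of split was seen in the tail list. Smcp, a protein of the mitochondrial sheath, was at 2694 CPM against 147 CPM, while Odf2 was at 1824 CPM against 1446 CPM and Ropn1l, of the fibrous sheath, at 3763 CPM against 3715 CPM. These genes of acrosome and tail were thus as abundant in the other BA10 cells as in the 200 cells, within 2-fold.

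The genes furthest above the other BA10 cells, among those seen in 10% or more of the cells of either set, were Banf2, 4930557A04Rik, Pex5l, Iqcf1, H1fnt, Hmgb4, Saxo1 and Asb17, with log2 ratios from 5.67 to 5.98. All of these but Hmgb4 were under 10 CPM in the other BA10 cells and so could hardly be lower in the ranked cells. Banf2, of the family of chromatin-bridging BAF proteins, was at 308 CPM against 3.90 CPM, and Hmgb4 at 1537 CPM against 26.6 CPM. Pex5l, related to the peroxisomal import receptor, was at 131 CPM against 1.30 CPM and Saxo1, a protein of stable microtubules, at 145 CPM against 1.68 CPM. Banf2, Pex5l and Saxo1 were at 260, 103 and 138 CPM in the cells low in Prm1, so their level did not rest on the 17 high cells. Iqcf1 (424 CPM low, 2088 CPM high) and 4930557A04Rik (60.3 CPM low, 677 CPM high) were higher in the latter, as was Asb17 (130 CPM low, 533 CPM high).

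The furthest below were Elfn2, Frs3, Mllt10, Gfi1, Rnls, Dyx1c1, Mrpl45 and Ptcd1. All of these but Mllt10 and Rnls reached 10 CPM only in the other BA10 cells and so could hardly be higher in the ranked cells. Elfn2 was at 6.54 CPM against 190.6 CPM and at 584 CPM in the BA10 cells ranked highest on spermatocyte genes. Mllt10, a chromatin cofactor, was at 23.3 CPM against 525 CPM and 978 CPM in those cells. Rnls was at 13.3 CPM against 224 CPM, Dyx1c1, which assembles ciliary dynein, at 5.23 CPM against 95.5 CPM, and Mrpl45, a mitochondrial ribosomal protein, at 3.40 CPM against 66.1 CPM. Gfi1, a transcriptional repressor, had 0 UMIs in the 200 cells and 15.9 CPM in the other cells, at least 20.3-fold lower when 3 counts over the 200 cells are taken as the floor. Frs3 and Ptcd1 stood at 0.523 and 0.785 CPM, on very few UMIs, against 32.5 and 25.1 CPM.

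Of the 15 genes of the meiotic divisions, 10 were at least 2-fold lower and 1 (Cdc25c, 45.3 CPM against 15.1 CPM) was higher, with a list median of -1.54, or -0.93 with 400 cells ranked in. Aurka, a spindle kinase, was at 59.4 CPM against 502 CPM (log2 ratio -3.06, interval -3.26 to -2.86), and Pttg1, securin, at 124 CPM against 465 CPM. Hspa2, the chaperone of meiotic cells, was at 597 CPM against 1092 CPM and Ccnb2, a cyclin, at 307 CPM against 384 CPM. Of the synaptonemal complex and recombination list, 13 of 18 genes were at 10 CPM or more, of which 5 were lower and 3 higher, shares close to those over all genes. Sycp3, a lateral element protein, was at 65.7 CPM against 314 CPM and Syce1, of the central element, at 447 CPM against 872 CPM. The 3 higher genes were Syce2, also of the central element (505 CPM against 74.1 CPM), Rec8, a meiotic cohesin (70.1 CPM against 11.4 CPM), and Msh4, a recombination factor (13.9 CPM against 2.64 CPM), which passed the minimum only in the 200 cells. Syce3 and Smc1b lay within 2-fold. Of 12 pachytene genes 5 were lower and 1 higher, with a median of -0.80 beside -0.48 over all genes, of which 31.3% were lower. Piwil1, which binds small RNAs of germ cells, was at 21.5 CPM against 230 CPM, whereas Pgk2, the glycolytic enzyme of late germ cells, was at 544 CPM against 235 CPM. Ldhc, Mael and Mns1 stayed within 2-fold. Of the 14 spermatogonial genes only 3 reached 10 CPM in either set. Id4 was lower at 16.2 CPM against 77.1 CPM, Dazl stood at 31.9 CPM against 27.9 CPM and Uchl1 at 8.64 CPM against 10.96 CPM.

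Regulators of the spermatid programme behaved as separate genes. Fhl5, the co-activator of CREM, was at 630 CPM against 16.7 CPM (log2 ratio 5.16, interval 5.03 to 5.28), with a median of 604 CPM per cell and a UMI in 194 of the 200 cells. Crem itself was at 602 CPM against 344 CPM and Papolb, a testis poly(A) polymerase, at 418 CPM against 342 CPM, both within 2-fold. Tbpl1, a relative of the TATA-binding protein, was at 691 CPM against 1321 CPM, also within 2-fold, and Rfx2, a factor of ciliary genes, at 45.5 CPM against 121 CPM. Of 8 regulators, 3 were higher, 1 of them at 10 CPM only in the 200 cells, and 1 was lower. Over all genes, 24.3% were higher and 31.3% lower. The sex-linked list had 9 genes in the table, 5 of them at 10 CPM or more. Of these 4 were higher, namely Cypt1, Cypt2, Cypt3 and Cylc1, which encode proteins of the perinuclear theca of the sperm head, at 693, 305, 499 and 147 CPM against 40.2, 21.4, 27.9 and 14.8 CPM. The Cypt genes are close copies of each other, so UMIs may be split among them.

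**Figure D5:**
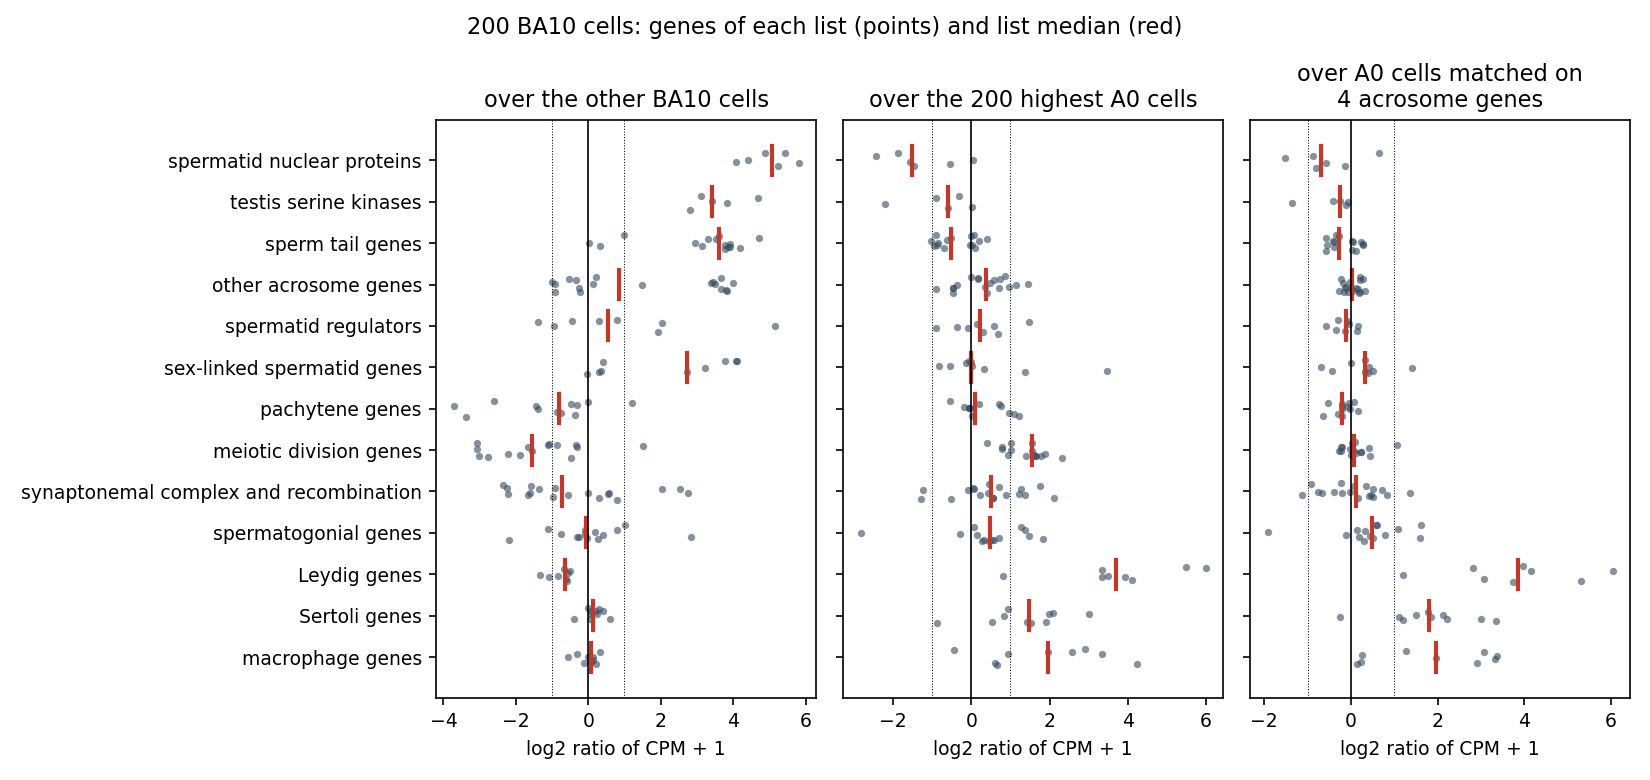
Log2 ratio of CPM + 1 (horizontal axes) for every gene of 13 lists (points) and the median of each list (red bars), for the 200 BA10 cells over the other BA10 cells, over the top A0 cells and over the matched A0 cells; dotted lines mark 2-fold. The nuclear protein list has medians of 5.06, -1.51 and -0.69, the meiotic division list of -1.54, 1.54 and 0.06, and the Leydig list of -0.63, 3.70 and 3.85.

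Against the top A0 cells, the 200 cells had less of 4 of the 6 spermatid nuclear protein genes and more of most meiotic division genes. Of 6731 genes at 10 CPM or more, 1653 (24.6%) were at least 2-fold higher and 830 (12.3%) at least 2-fold lower. Of the 1653, 830 were under 10 CPM in the top A0 cells and so could hardly be lower. The counts moved widely with the settings: ranking cells of both libraries without Prm1 left 603 higher and 387 lower, ranking on summed CPM gave 4444 higher, adding 10 CPM left 779 higher, and dropping the minimum gave 3539 higher and 1291 lower. The median over all genes was 0.43; relative to it 815 were higher and 1262 lower, and the share of higher genes among those called moved from 66.6% to 39.2%. Tnp2 was at 2812 CPM against 10318 CPM (log2 ratio -1.88), Prm2 at 3656 CPM against 19740 CPM (-2.43), Tnp1 at 2385 CPM against 6556 CPM (-1.46) and H1fnt at 529 CPM against 1567 CPM (-1.56). Prm3 (1875 CPM against 1823 CPM) and Hils1, a spermatid linker histone (2061 CPM against 3033 CPM), were within 2-fold. Tssk6 was lower at 148 CPM against 681 CPM, and the other testis serine kinases were within 2-fold. The nuclear protein list had a median of -1.51, or -2.37 without the 17 cells high in Prm1. Of the meiotic division genes, 10 of 13 at 10 CPM or more were higher, or 9 of the 12 that reached it in the top A0 cells. The list median of 1.54 became 0.61 when cells of both libraries were ranked without Prm1. Values were 124 CPM for Pttg1 against 40.4 CPM, 59.4 CPM for Aurka against 21.7 CPM and 55.5 CPM for Cks2, a partner of cyclin-dependent kinases, against 18.4 CPM. Of 12 synaptonemal and recombination genes 3 were higher, 2 of them under 10 CPM in the A0 cells, and 1 was lower, with a median of 0.50. Of 10 pachytene genes 1 was higher and 0 lower, with a median of 0.10, and both shares and the median were below those over all genes. Among regulators, Tbpl1 was higher at 691 CPM against 249 CPM. In the sex-linked list Ssxb1 was higher at 33.5 CPM against 2.14 CPM, under the minimum in the top A0 cells, so it could hardly be lower. Ssxb1 stood at 25.3 CPM in the matched A0 cells and 26.7 CPM in the other A0 cells.

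Most of this contrast with meiotic genes was not seen when the A0 cells were matched to the 200 cells on Acrv1, Spaca1, Spaca3 and Spaca7, a comparison added after the data were seen. Pairs differed by at most 0.000674 in the mean over these 4 genes, the matched A0 cells had a median of 14084 UMIs, and 12 of them were also top A0 cells. Of 6677 genes, 359 (5.38%) were at least 2-fold higher in the 200 cells, 260 of them under 10 CPM in the matched A0 cells, and 411 (6.16%) lower, with a median of 0.04. The meiotic division list had a median of 0.06, with 1 of 13 genes higher (Cks2, 55.5 CPM against 26.1 CPM) and 0 lower. By the matching the acrosome genes were set to be close, and the 18 acrosome genes and 15 tail genes outside the ranking were all within 2-fold, from -0.28 to 0.33 and from -0.58 to 0.29. Of the 6 nuclear protein genes, only Prm2 was at least 2-fold lower (-1.51, interval -1.55 to -1.48); Tnp2 was at -0.88, H1fnt at -0.81, Tnp1 at -0.57, Hils1 at -0.13 and Prm3 at 0.64. Tssk6 was lower as well (148 CPM against 377 CPM). In a step added after the data were seen, the level of the spermatocyte-ranked cells of the same library was taken off the sums. That level was itself a sum over cells. Of those 200 A0 cells, Scrublet called 18, and their 5-gene mean reached 2.07. Whether too much was taken off in A0 was not tested. After the step, neither Prm2 nor Tssk6 passed 2-fold as a summed ratio. Prm2 was at 3712 CPM in those A0 cells and 30.8 CPM in those BA10 cells, which left a log2 ratio of -0.89. Tssk6 was at 214 CPM and 5.03 CPM, which left -0.19. Against the top A0 cells the same step left Prm2 at -2.14, Tssk6 at -1.70, Tnp2 at -1.66, H1fnt at -1.42 and Tnp1 at -1.24, all still at least 2-fold lower. Prm1, a ranking gene, was at 4730 CPM in the 200 cells against 7834 CPM in the matched A0 cells when summed (-0.73), with medians per cell of 157 and 3167 CPM. With the level of the spermatocyte-ranked cells taken off (2779 CPM in A0 and 35.2 CPM in BA10), the summed ratio was -0.11, and -1.51 against the top A0 cells. These are ratios of sums, and the step was not made on medians per cell. The 17 cells high in Prm1 held 93.9% of Prm1 and 94.0% of Prm2 UMIs of the 200 cells. The step therefore says little of the other cells of the 200, and the part of background was not tested.

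The genes furthest below the top A0 cells were Esyt3, Ptprr, Ccdc168, Nim1k, Faiml, Slc26a10, 4933406M09Rik and Col15a1, and all 8 were also lower than in the matched A0 cells. All of these but Ccdc168 were under 10 CPM in the 200 cells and so could hardly be higher there than in the top A0 cells. Ccdc168 was at 17.01 CPM against 353 CPM in the top and 142 CPM in the matched A0 cells, and it was at 1.55 CPM in the cells low in Prm1 and 119 CPM in those high. Esyt3, an endoplasmic reticulum tether, was at 1.83 CPM against 60.3 and 20.3 CPM. It had 0 UMIs in the cells low in Prm1 and 16.7 CPM in those high. Nim1k, a kinase, was at 4.97 CPM against 102 and 42.1 CPM and did not follow that pattern (5.28 CPM low, 5.55 CPM high). Faiml was at 7.59 CPM against 137 and 49.1 CPM (1.24 CPM low, 66.6 CPM high), and 4933406M09Rik at 6.02 CPM against 109 and 51.1 CPM (0 CPM low, 49.97 CPM high). Ptprr, Slc26a10 and Col15a1 were at 0.262, 0.523 and 0.523 CPM in the 200 cells, on very few UMIs, against 25.7, 23.3 and 22.0 CPM in the top A0 cells. The sign of Esyt3, Ccdc168 and Nim1k turned (to 0.11, 0.81 and 0.89) when cells of both libraries were ranked on summed CPM, a ranking in which Prm1 weighs most.

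The genes furthest above the top A0 cells were Lcn2, Fabp3, Insl3, Akr1cl, Apoc1, Aldh1a1, Agt and Ly6e, with log2 ratios from 4.76 to 6.36. All of them were at 1.53 CPM or less in the top A0 cells and so could hardly be lower in the 200 cells. Insl3, the hormone that defines Leydig cells, was at 85.1 CPM against 0.918 CPM, and Cyp11a1 and Cyp17a1, enzymes of steroid synthesis, were at 51.3 and 63.3 CPM against 2.45 and 2.76 CPM. Fabp3, a fatty acid carrier, was at 159 CPM against 1.53 CPM and Lcn2, lipocalin 2, at 181 CPM against 1.22 CPM. Ly6e was at 26.2 CPM against 0 UMIs, at least 28.5-fold higher when 3 counts over the top A0 cells are taken as the floor. All 7 Leydig genes at 10 CPM or more were higher, beside 24.6% of all genes. They were also higher than in the matched A0 cells, beside 5.38% of all genes. However, all 7 were under 10 CPM in both A0 sets and so could hardly be lower in the 200 cells. Of 1653 genes higher than in the top A0 cells, 1243 were at a level at or above that of the 200 cells in the other BA10 cells as well, and 687 of the 830 lower genes were at or below it there.

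Leydig genes were found in nearly all BA10 cells. Summed over the 8 genes of the list, they were at 395 CPM (375 to 416) in the 200 cells, 645 CPM in the other BA10 cells, 8.57 CPM in the top A0 cells and 8.72 CPM in the matched A0 cells. A UMI of the list was seen in 193 of the 200 cells (96.5%) and in 97.4% of the other BA10 cells, against 13% of the top A0 cells. Leaving out the BA10 cells ranked highest on Leydig genes, 6 of them among the 200, left 260 CPM (244 to 277) in the 194 others and 199 CPM in the other BA10 cells, so that the order turned; in the 17 cells high in Prm1 the sum was 1644 CPM with and 269 CPM without 2 such cells. Of the Sertoli list, 5 of 5 genes at 10 CPM or more were higher than in the top A0 cells, beside 24.6% of all genes. Of these, 3 were under 10 CPM in the A0 cells. Against the other BA10 cells 0 were higher, beside 24.3% of all genes. Clu, clusterin, was at 114 CPM against 13.2 CPM in the top A0 cells and 109 CPM in the other BA10 cells, and Aard at 117 CPM against 28.8 and 98.8 CPM. Ctsl, a lysosomal protease, and Amhr2, the receptor of anti-Müllerian hormone, were at 41.3 and 27.5 CPM against 8.88 and 8.88 CPM in the top A0 cells. In the other BA10 cells they were at 39.1 and 22.3 CPM. The Leydig-ranked BA10 cells held more of these genes, with Clu at 765 CPM, Aard at 154 CPM, Ctsl at 170 CPM and Amhr2 at 95.1 CPM. These genes were thus also high where Leydig genes were. The defining Sertoli factor Sox9 was near 0, at 1.05 CPM, and the defining Leydig gene Hsd3b1 at 10.2 CPM. Of the macrophage list, 4 of 9 genes reached 10 CPM in this comparison. The 3 that were higher, among them C1qc at 12.3 CPM against 0.306 CPM and C1qa at 12.3 CPM against 1.22 CPM, were under it in the A0 cells, and C1qb, which reached it there, was at 9.16 CPM against 12.9 CPM. The part of free RNA in these levels was not tested.

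Most death and stress genes were under 10 CPM in the 200 cells. The p53 and apoptosis list had a median log2 ratio of -0.11 over the other BA10 cells, and its sum of 245 CPM against 163 CPM was mostly Mdm2. Of 12 genes of p53 and apoptosis, 3 reached 10 CPM in the comparison with the other BA10 cells and 0 passed 2-fold: Mdm2, which degrades p53, was at 209 CPM against 130 CPM, Cdkn1a at 10.5 CPM against 6.401 CPM and Bax at 8.90 CPM against 14.7 CPM. Bcl2l11, a death-promoting BCL2 relative named after its values were seen, was under the minimum at 9.42 CPM against 1.03 CPM (log2 ratio 2.36, interval 1.75 to 2.94), and it stood at 8.88 CPM in the top A0 cells. Cdkn1a was 2-fold above the matched A0 cells (10.5 CPM against 4.65 CPM, log2 ratio 1.02, interval -0.01 to 2.06). It passed the minimum there only in the 200 cells and so could hardly be lower. Its level was 7.15 CPM in the cells low in Prm1, 28.8 CPM in the middle and 27.8 CPM in the high range. The Leydig-ranked BA10 cells had 50.2 CPM. Of 7 immediate early and heat shock genes, Jun alone reached 10 CPM, at 2.88 CPM in the 200 cells and 14.2 CPM in the other BA10 cells. Endothelial and peritubular myoid genes did not reach 10 CPM in any set compared.

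Profiles over 6289 genes were compared with A0 cells in order of acrosome transcripts. The 8941 A0 cells were cut into 20 bins by the mean over the 4 acrosome genes, and Spearman's rho across genes is given as a description, since genes are not independent and all bins come from 1 library. The profile of the 168 cells low in Prm1 was closest to the bin with the highest 4-gene mean (rho 0.913) and nearly as close to the 5 bins below it (0.908 to 0.909). The 15 middle cells were closest to the same bin (rho 0.907). The bins were ordered by acrosome genes that also ranked the BA10 cells. All low and middle cells had a 4-gene mean of at least 1.66. Their closeness to bins with a high 4-gene mean was therefore in part set by the rule. The profile of the 17 cells high in Prm1 was closest to bin 8 (rho 0.807), whose cells had a median of 39302 CPM of Prm1 and a 4-gene mean of 0.634. This profile pools cells whose own 4-gene means ran from 0.143 to 1.87. The other BA10 cells were closest to bin 2 (rho 0.919), whose cells had a median X-linked share of 0.0728%.

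The cells ranked the same way in the other libraries are given as values. The 200 highest A10 cells carried 20870 CPM of Prm1, 10469 CPM of Tnp2 and 2420 CPM of Prm3, and the 200 highest B0 cells 323, 176 and 1131 CPM, against 4730, 2812 and 1875 CPM in the BA10 cells. Spam1 was at 91.3 CPM in those A10 cells and 135 CPM in those B0 cells. The lowest cell ranked in stood at 2.67 in A10 and at 0.869 in B0, so these sets are cut at different levels.

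Depth and barcodes bear on all values above. Median UMIs per cell were 14184 in the 200 cells, 18424 in the other BA10 cells and 14319 in the top A0 cells, and median genes per cell were 3633, 4141 and 3362. Thinned to 7500 UMIs, the medians were 2705, 2636 and 2473 genes. Of the barcodes of the 200 cells, 7 were also found in another library, as were 124 of the other 3578.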

How the data were processed

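Single testis cells of 4 libraries, 1 per group, were analysed from 1 deposited table. Per the submitters' processing notes the reads were counted with Cell Ranger 2.2.0 on mm10, and per the methods of the study cells and genes were filtered and scaled in Seurat. The authors deposited natural log values, ln(1 + 10000 × the share of a cell's UMIs). All values gave back whole UMIs (100%, tolerance 0.001). UMIs were summed over each set of cells as counts per 1000000 (CPM), genes needed 10 CPM in either set, 1 CPM was added before log2, and 2-fold differences were called. With 1 library per group no test was made. Intervals (95%) are exact Poisson for CPM and Clopper-Pearson for shares. Those of ratios set opposite Poisson bounds of both sets against each other and are wider than 95% intervals. A list's median is over all its genes in the table, its calls over those at 10 CPM or more. Cells were thinned to 7500 UMIs for shares and genes per cell. Scrublet (scanpy 1.11.5, expected 6%) marked doublets, which were kept. X-linked genes were assigned with RefSeq names, which matched 17396 of 18419 genes, and their share is of the UMIs of matched genes. The scripts were tested on simulated data (Python 3.11.15, numpy 2.4.6, scipy 1.17.1). For each member, the matched A0 cell was the nearest unused one on the 4 acrosome genes. The cells, gene lists and tests were chosen with earlier results of these data known. Named genes were the 5 ranking genes, the 8 highest and 8 lowest ratios per comparison among genes seen in 10% of cells, the 4 most abundant genes of each list, and list genes that went against their list. Values of Cdc25c, Cks2, Msh4, Piwil1, Prm3, Rec8, Rfx2, Spam1 and Sycp3 were printed after they were seen, as were those of other genes outside this rule. The Prm1 ranges and the matched A0 cells were also set after the data were seen. Alternatives covered the number of cells ranked, the ranking, thinning, per-cell means, the added constant, doublets and the minimum level.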

Additional observations from a re-analysis of the deposited data

Results flagged for a closer look

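Contrasts between the 200 highest ranked cells and the other cells of their library had opposite signs in BA10 and A0 for 4 measures, and with 1 library per group none of these differences was tested. The median UMIs per cell in the 200 cells minus those in the other cells were -4240 in BA10 and 1706 in A0, a difference of -5946. The median number of genes per cell differed by -508 in BA10 and 4.5 in A0, a difference of -512.5. Thinned to 7500 UMIs, both signs turned, to 69 in BA10 (2705 against 2636 genes) and -209 in A0 (2473 against 2682 genes). The median log2 ratio of the 9 macrophage genes was 0.09 in BA10 (medians of the interval bounds -0.51 and 0.73) and -0.47 in A0 (-0.59 and 0.72), a difference of 0.56. That of the 5 endothelial genes was 0.72 in BA10 (-0.09 and 1.68) and -0.01 in A0 (-0.43 and 1.07), a difference of 0.73, with 0 of these genes at 10 CPM and summed levels of 9.68 CPM in the 200 BA10 cells and 2.79 CPM in the other BA10 cells. The bounds of both lists lay on either side of 0 in both libraries. They are medians over single genes and not intervals of a list median, so they do not decide whether the signs differ. In BA10 the intervals of Egfl7 (0.45 to 1.96) and Kdr (0.62 to 2.16) lay above 0, while those of Vwf and Pecam1 did not.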

How the results depend on the processing

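No paired analysis was possible because each group was 1 library and no result came from a test. Values are log2 ratios or numbers of genes, BA10 means against the other BA10 cells and A0 against the top A0 cells, and no cause was tested. With 100 cells, the spermatid lists were at 3.42 (BA10) and 0.11 (A0), the Leydig list at -0.18 and 4.79, and Cyp11a1 turned to 0.015 in BA10. With 400 cells, the spermatid lists were at -0.44 in A0 and Mdm2 turned to -0.0066. Ranked without Prm1, the spermatid lists were at 3.37 (BA10) and -0.26 (A0), 603 genes were higher and 387 lower than in A0, and the A0 ratios of other acrosome genes (-0.14), regulators (-0.24), Crem (-0.25), Hspa2 (-0.13), Mdm2 (-0.26), Rec8 (-0.046) and Spam1 (-0.38) turned. Ranked on linear CPM, a ranking that weights Prm1 most by its construction, 4444 genes were higher than in A0, the spermatid lists were at 2.65 and the meiotic lists at 2.05, and the A0 ratios of tail genes (0.66), Acrv1 (3.40), Spaca1 (4.32), Spaca3 (3.86), Spaca7 (3.08), Hils1 (1.62), Fhl5 (1.45), Tssk1 (2.98), Cylc1 (0.91), Msh4 (1.16), Esyt3 (0.11), Ccdc168 (0.81) and Nim1k (0.89) turned. Thinned to 7500 UMIs, the BA10 ratios were 3.16 (spermatid lists), -1.27 (meiotic lists) and -1.27 (Leydig list). With means of per-cell CPM they were 3.16 (spermatid lists), -1.45 (Leydig list) and -0.035 (Cdkn1a, turned). With 10 CPM added, the spermatid lists were at 3.07 and 1500 genes lower in BA10, and 779 genes were higher and the Leydig list at 1.71 in A0. With no minimum level, 3539 genes were higher and 1291 lower than in A0. Without cells called by Scrublet, none of these summary values moved beyond its interval or by 1.5 times. As 0 of the 200 cells were called, this step could not change which BA10 cells were ranked in. The other alternatives were chosen after seeing the data. Without members at 5000 CPM of Prm1 or more, no summary value moved, but the nuclear protein median did, to 3.94 (BA10) and -2.37 (A0). Centred on the median of all genes, the BA10 values were 4.02 (spermatid lists), -0.61 (meiotic lists), -0.16 (Leydig list) and 1412 genes lower, with Acrbp (0.23), Ccnb2 (0.16), Dkkl1 (0.25), Ldhc (0.18) and Mns1 (0.11) turned. The centred A0 values were -0.45 (spermatid lists), 815 genes higher and 1262 lower, with other acrosome genes (-0.063), regulators (-0.21), Crem (-0.29), Dkkl1 (-0.27), Mael (-0.25), Mdm2 (-0.21), Ropn1l (-0.37) and Zpbp (-0.041) turned. Against matched A0 cells, 359 genes were higher and 411 lower, the meiotic lists were at 0.062, and regulators (-0.11), Aurka (-0.24), Crem (-0.10), Hspa2 (-0.21), Mael (-0.055), Mdm2 (-0.0046), Rfx2 (-0.038), Spaca3 (0.027), Spaca7 (0.18), Syce1 (-0.030) and Zpbp2 (-0.11) turned. Without cells ranked highest on Leydig genes, the Leydig list (0.37), Insl3 (0.39), Fabp3 (0.44), Cyp17a1 (0.27) and Cyp11a1 (0.43) turned in BA10. Less the level of spermatocyte-ranked cells, Hils1 turned to 0.0040 against matched A0 cells. Over all alternatives, 1853 values stayed within their limits, 879 moved and 53 turned. The 17 cells high in Prm1 limit every statement on that range, and 1 library per group limits every comparison with A0.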
